A study of Hordeum vulgare with 39 samples.

Results

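Endosperm and embryo were compared at 24 days after pollination (DAP) in barley (Hordeum vulgare) of the spring cultivar Morex, a six-rowed type. The comparison covers 6 of the 39 libraries of a series on seed development: the 3 libraries labelled 24 DAP endosperm and the 3 labelled 24 DAP embryo, with all transcript entries of the deposited count table. All plants were Morex raised in a climate chamber with long days, no treatment is named, and the seed parts were separated by hand. RNA from each part was poly-A selected and sequenced. The labels do not say how many seeds or plants went into a library, so p-values measure only the spread between these samples, which may be technical. The other libraries are used to estimate the spread of each gene, and the libraries of endosperm and embryo at 8, 16 and 32 DAP and of seed maternal tissues at 24 DAP are set beside the comparison.

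Both parts arise at double fertilization. The endosperm is the storage tissue of the grain. Its starchy cells fill with starch and seed storage proteins and later die, while the aleurone layer around them stays alive and mobilizes the reserves at germination. The embryo holds the shoot and root axis and the scutellum, the organ through which it takes up the reserves. In cereals both tissues pass through grain filling and then dry out.

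Identifiers are those of the Morex gene annotation used in the table. The reference gene table at hand holds 0 of them, so no gene name, function or sequence is given, and the tissue labels could not be checked against named marker genes. An entry is called a gene below. Genes are described by level, by behaviour in other libraries and by the chromosome label inside the identifier. Only 2 genes higher in endosperm and 2 lower are named.

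Total counts were 11593753, 13584276 and 21911989 in endosperm libraries and 16925457, 16128504 and 26718277 in embryo libraries. Levels are given as CPM, each count scaled to a common library total, with that total adjusted by trimmed mean of M-values (TMM) factors. These factors were 0.692 to 0.76 in endosperm and 1.14 to 1.23 in embryo, so a gene's CPM in endosperm is larger than its plain share of the library. A floor of 3 counts corresponds to 0.198 to 0.341 CPM in endosperm and 0.0988 to 0.157 CPM in embryo. This floor covers counting error only. Between replicates, Pearson correlations across genes of log2(CPM + 1) were 0.985 to 0.990 in endosperm and 0.986 to 0.994 in embryo (genes are not independent replicates). Between the tissues they were 0.806 to 0.822. Each 24 DAP library lay closer to the 16 and 32 DAP libraries of its own tissue (mean correlation 0.956 to 0.959 for endosperm and 0.939 to 0.945 for embryo) than to those of the other filial tissue (0.778 to 0.787 for endosperm libraries against embryo and 0.811 to 0.815 for embryo libraries against endosperm).

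At 24 DAP the counts of the endosperm were concentrated in far fewer genes than those of the embryo, and most of them fell on genes called higher in endosperm. The 126, 141 and 108 most abundant genes were enough to hold 50% of all counts in the 3 endosperm libraries, against 869, 860 and 807 genes in the 3 embryo libraries. The 10 most abundant genes of a library took 24.9%, 23.6% and 26.4% of its counts in endosperm and 7.73%, 7.29% and 7.09% in embryo. The number of genes at 1 CPM or more was similar, at 17221, 17031 and 16936 in endosperm libraries and 17607, 17378 and 17045 in embryo libraries, and these ranges overlapped. The ranges of the other 2 measures did not overlap between the tissues. A set of 3 libraries against 3 cannot go below p = 0.1 in an exact permutation test, so these measures were not tested. In bulk tissue, fewer cells of a type and less RNA per cell cannot be told apart.

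Of 29594 genes tested, 12490 were called (42.2%; edgeR quasi-likelihood test, Benjamini-Hochberg adjusted p under 0.05 and at least 1 on the log2 scale in either direction). Of these, 5724 were higher in endosperm (19.3% of genes tested) and 6766 were lower (22.9%). The 3 endosperm libraries lay above all 3 embryo libraries in 5391 of the genes called higher, where 27.2% of all genes tested showed that order. For the genes called lower, the endosperm libraries lay below all embryo libraries in 6659, where 35.3% of all genes tested did. The split between directions depended on the scaling, the filter and the model. Of the calls, 45.8% were higher in endosperm with TMM factors, 51.3% with median-ratio factors and 26.3% with library size alone. The share was 49.2% with no filter on low counts and 48.9% with at least 1 CPM in at least 3 libraries. With a replicate block within stage it was 48.2%, and with DESeq2 50.1%. Library size alone put the median log2 fold change of all genes at -0.81, and TMM factors put it at -0.12. Within the range of library numbers that holds replicates 1 and 2 of both tissues, 10817 of 30877 genes tested were called with 2 libraries per tissue. Replicate 3 of endosperm and replicate 3 of embryo carry library numbers of 2 other ranges, and the labels do not say what a range stands for.

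The genes called higher in endosperm took 63.1%, 61.5% and 63.1% of the counts of the endosperm libraries and 7.60%, 7.78% and 7.33% of those of the embryo libraries. Genes called lower in endosperm took 6.46%, 6.97% and 6.63% of endosperm counts and 42.1%, 42.0% and 42.5% of embryo counts. Genes tested and not called held 30.2% to 31.4% of endosperm counts and 50.2% to 50.3% of embryo counts. These shares describe the calls and are no test of them.

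**Figure D1:**
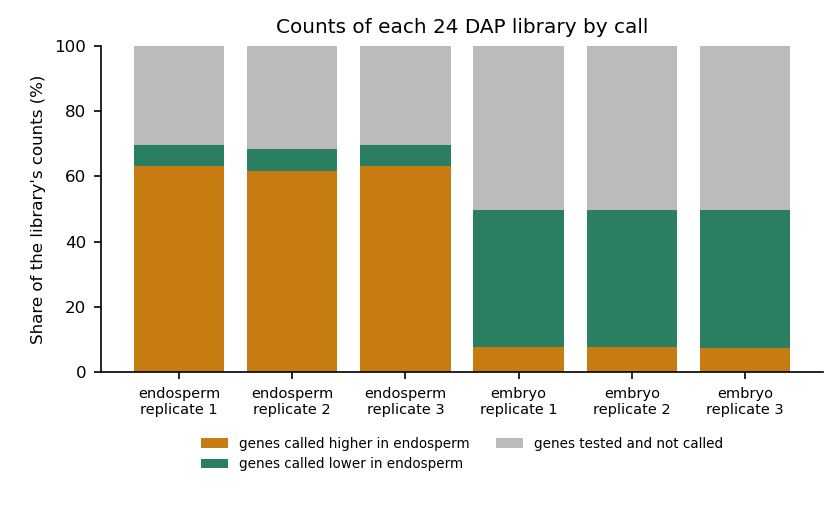
Share of each 24 DAP library's counts (%, vertical axis) in genes called higher in endosperm, called lower in endosperm, and tested but not called, for 3 endosperm and 3 embryo libraries. Genes called higher fill 61.5% to 63.1% of the endosperm bars and 7.33% to 7.78% of the embryo bars; genes left untested, at most 0.0585% of these libraries, are not drawn.

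The most abundant genes of each tissue were picked by their level in the same 24 DAP libraries, which favours a call towards that tissue, so their counts are a description. All 10 of the most abundant endosperm genes were called higher there (19.3% of all genes tested were). Their mean levels in endosperm ran from 17540 to 89420 CPM, and the same genes had a median level of 0.401 CPM in embryo. None of them was among the 10 most abundant embryo genes. The 10 most abundant embryo genes had mean levels of 3292 to 21300 CPM in embryo. Their median level in endosperm was 1178 CPM. Of these 10, 7 were called lower in endosperm (22.9% of all genes tested were) and 3 were not called. Among the called genes, 706 of those higher in endosperm reached a mean of 100 CPM there, and 602 of those lower reached it in embryo. At a mean of at least 1000 CPM in the higher tissue, 82 genes were higher in endosperm, and 47 of them were under 1 CPM in embryo. At the same minimum 52 genes were lower in endosperm, and none of these was under 1 CPM in endosperm, where their lowest mean was 4.89 CPM and their median 428.3 CPM. The TMM factors raise CPM above the plain share of a library in endosperm and lower it in embryo. The counts of genes at 100 and 1000 CPM rest on them and were not rerun with another scaling. The 82 endosperm genes held 44.1% to 47.0% of endosperm counts and 1.15% to 1.25% of embryo counts. The 52 genes lower in endosperm held 1.71% to 1.93% of endosperm counts and 13.8% to 14.1% of embryo counts.

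The gene with the largest CPM difference was HORVU.MOREX.r3.1HG0068040.1, the most abundant gene of the 24 DAP endosperm. It had 81070, 83650 and 103500 CPM in endosperm libraries, against 0.965, 0.626 and 2.30 CPM in embryo libraries. The embryo values rested on 20, 12 and 70 counts, and the lowest endosperm value lay far above the highest embryo value. The fitted log2 fold change came to 16.01 (SE 1.15, edgeR adjusted p = 2.83e-12). Seed maternal tissues at 24 DAP had 327.7, 840.9 and 227.2 CPM of it, between the filial tissues. In endosperm its mean was 2.79 ± 0.856 CPM at the 4 DAP stage. It was 7762 ± 1210, 91220 ± 37200, 89420 ± 12300 and 43460 ± 4620 CPM across the stages of 8, 16, 24 and 32 DAP (SD, n = 3 each). In embryo its mean stayed between 0.036 CPM at 32 DAP and 1.3 CPM at 24 DAP. At 32 DAP, where no embryo library had more than 2 counts, the endosperm level was at least 402000-fold higher than a floor of 3 counts per embryo library.

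In the other direction, the largest CPM difference belonged to HORVU.MOREX.r3.5HG0517950.1, the most abundant gene of the 24 DAP embryo. It had 2194, 3718 and 2856 CPM in endosperm libraries and 22280, 19680 and 21930 CPM in embryo libraries. The groups did not overlap, and the lowest endosperm library still held 2194 CPM. The fitted log2 fold change came to -2.87 (SE 0.799, edgeR adjusted p = 0.00364). Across the stages of 8, 16, 24 and 32 DAP its means were 1.6 ± 1.04, 2096 ± 293, 2923 ± 764 and 9446 ± 423 CPM in endosperm and 23.8 ± 20.9, 21450 ± 5320, 21300 ± 1410 and 13790 ± 2060 CPM in embryo (SD, n = 3 each). The gene was low in both tissues at 8 DAP and abundant in both from 16 DAP. Seed maternal tissues had 76.4, 273.5 and 154 CPM at 24 DAP, less than either. For the 32 DAP libraries the fitted value was -0.55 on the log2 scale (SE 0.747, edgeR adjusted p = 0.586), and the change of the tissue difference between 24 and 32 DAP was not called (contrast -2.32, SE 1.07, edgeR adjusted p = 0.225).

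**Figure D2:**
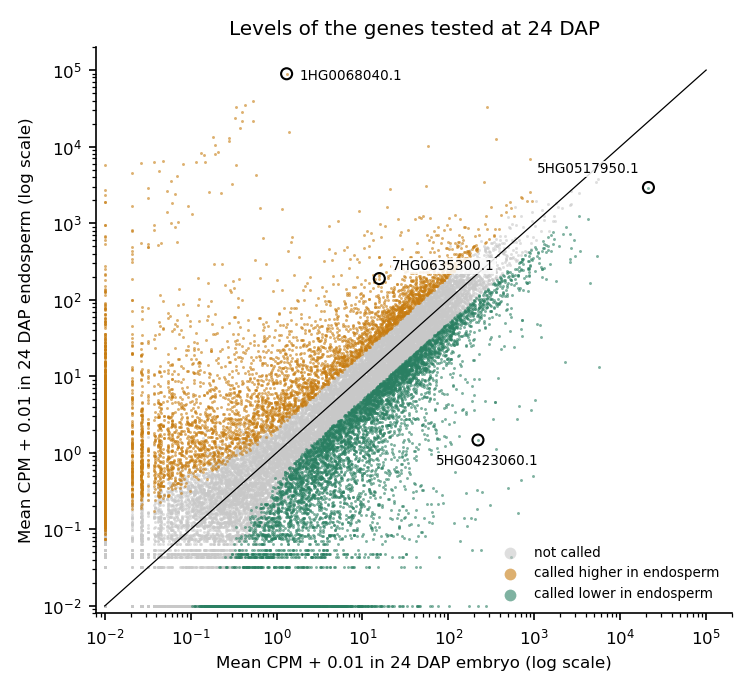
Mean CPM + 0.01 of each gene tested in 24 DAP endosperm (vertical, log scale) against 24 DAP embryo (horizontal, log scale), coloured by call, with equality as a line and the 4 named genes circled under shortened identifiers. Of the genes above 1000 CPM in endosperm and called higher, 47 lie under 1 CPM in embryo, while none of the 52 genes called lower and above 1000 CPM in embryo lies under 1 CPM in endosperm.

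Many calls were of genes that were close to undetected in one tissue. Among genes called higher in endosperm, 2487 of 5724 had at most 3 counts in every embryo library, and 113 of these had at most 3 counts in every endosperm library too, so their calls rest on very few reads. Among genes called lower in endosperm, 2227 of 6766 had at most 3 counts in every endosperm library, 2 of them also in every embryo library. Fitted folds of such genes depend on the prior count. Genes at the floor in only 1 tissue were therefore also set to the bound that 3 counts per library allow. Those at the floor in both tissues kept their fitted value, here and in the medians of the lists below. The median log2 fold change was then 2.48 for genes called higher (3.89 as fitted) and -1.82 for genes called lower (-2.56 as fitted).

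Genes with at least 20 CPM in one tissue and at most 3 counts in every library of the other were then set apart. Of these, 160 were present in endosperm and near absent from embryo, and 73 were the reverse. The minimum of 20 CPM rests on the TMM factors, and these counts were not rerun with another scaling. The 160 endosperm genes had a median of 59.3 CPM, 21 of them reached 1000 CPM, and together they held 6.51% to 6.85% of endosperm counts. Their lower bounds ran from 150-fold to 49200-fold, with a median of 444-fold. The 73 embryo genes had a median of 36.8 CPM in embryo and a highest mean of 529.8 CPM. They held 0.536% to 0.584% of embryo counts, and endosperm was lower by at least 72.1-fold to 1900-fold, with a median bound of 132-fold. Endosperm libraries were shallower on the CPM scale, which makes bounds against them smaller. Of the 160, 98 were also at or under the floor in every embryo library at 8, 16 and 32 DAP. Of the 73, 19 were so in every endosperm library at those stages. In seed maternal tissues at 24 DAP, 6 of the 160 and 2 of the 73 were at or under the floor in all 3 libraries, while 27 of the 160 and 7 of the 73 reached 20 CPM. The maternal libraries were deeper, and 3 counts there were worth 0.0738 to 0.0777 CPM, less than in embryo or endosperm. A gene can thus be above the maternal floor at a CPM that lies under the floor of the other tissues.

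Genes that marked one tissue at the other stages were then followed into the 24 DAP libraries. An endosperm list held 110 genes with at least 20 CPM in endosperm at each of 8, 16 and 32 DAP. Their endosperm level at each of these stages was at least 50 times the embryo level, with 0.1 CPM added to the embryo level alone. At 24 DAP, 110 of 110 were called higher in endosperm (19.3% of all genes tested were), with a median log2 fold change of 13.96 (10.93 with genes at the floor set to their bound), against -0.12 over all genes tested (0 with such genes set to their bound). Their summed level was 479090, 454980 and 527290 CPM in endosperm libraries and 46.3, 55.7 and 51.7 CPM in embryo libraries. The embryo sums were 0.0095% to 0.0114% of the mean endosperm sum, and 24 of the 110 genes had 0 counts in all 3 embryo libraries. An embryo list built the same way with the tissues exchanged held 7 genes. At 24 DAP, 7 of 7 were called lower in endosperm (22.9% of all genes tested were), with a median log2 fold change of -8.77 (-7.68 with genes at the floor set to their bound). They summed to 0.795, 0.595 and 0.792 CPM in endosperm libraries and 470.1, 468.5 and 395.2 CPM in embryo libraries. The 2 lists come from other libraries of the same tissues, so these values check the labels of the 6 libraries and not the biology of the genes.

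The remaining list marked the tissue that surrounds both in the grain. It held 134 genes with at least 20 CPM in seed maternal tissues and at least 50 times the level in endosperm and in embryo at 8 and 16 DAP. These genes summed to 229.1, 113.4 and 173.9 CPM in endosperm libraries and 237.1, 239.3 and 249.4 CPM in embryo libraries at 24 DAP. Seed maternal tissues of that stage had 31304, 28592 and 34111 CPM. The sums were 0.362% to 0.731% of the mean maternal sum in endosperm and 0.757% to 0.796% in embryo. A few members made up the embryo sum, with 65.3% of it in 5 genes, against 21.4% of the endosperm sum in its 5 highest. The median member was lower in embryo, at 0.643 CPM in endosperm and 0.069 CPM in embryo. In endosperm 33 of the 134 genes were at or under the floor, with 15 at 0 in all 3 libraries, and in embryo 68 were at or under the floor, with 27 at 0. Of the 134, 69 were called higher in endosperm than in embryo (19.3% of all genes tested were), 17 lower (22.9%) and 48 neither, and the median log2 fold change was 2.22 (1.60 with genes at the floor set to their bound). No member reached 20 CPM in endosperm, and 3 did in embryo. The part of seed maternal transcripts in the low-level calls was not tested.

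**Figure D3:**
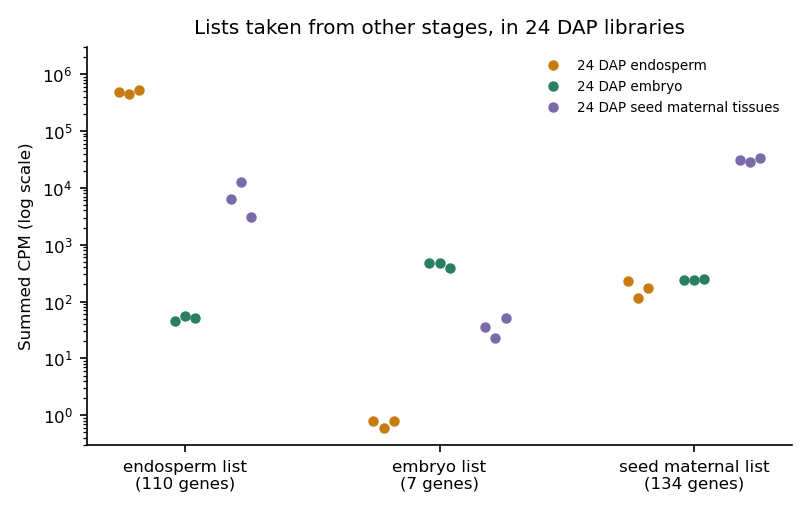
Summed CPM (log scale) of the genes of 3 lists taken from other stages, in each 24 DAP library of endosperm, embryo and seed maternal tissues (1 point per library). The endosperm list sums to 454980 CPM or more in endosperm libraries and to 55.7 CPM or less in embryo libraries, and each list is highest in the tissue it is named for.

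The seed maternal tissues of the same stage served to place the called genes. On the log2(CPM + 0.5) scale, the mean level in seed maternal tissues was within 1 of the embryo alone for 2142 of the 5724 genes higher in endosperm (37.4%) and within 1 of the endosperm alone for 1058 (18.5%). It was within 1 of both for 1096 (19.1%), between them for 482 (8.42%), above both for 763 (13.3%) and below both for 183 (3.20%). For genes lower in endosperm the picture was turned round. Here 2607 of 6766 (38.5%) had a maternal level near that of the endosperm alone and 1374 (20.3%) one near that of the embryo alone. The level was near both for 1187 (17.5%), between for 435 (6.43%), above both for 829 (12.3%) and below both for 334 (4.94%). The smaller classes depended on the margin. With 0.5 in place of 1, the level was near both for 145, between for 1148 and below both for 356 of the genes higher in endosperm, and for 152, 1222 and 767 of those lower. In either direction and with either margin, the largest class was the one in which the maternal level was near that of the tissue with less of the transcript. That tissue was at or under the floor for 2487 of the 5724 genes and 2227 of the 6766. With 0.5 CPM added, levels close to 0 in both count as near, and no other pseudocount was used. The endosperm list summed to 6258, 12500 and 3055 CPM in the maternal libraries, 0.627% to 2.57% of its mean sum in endosperm. The part of endosperm transcripts in these maternal levels was not tested.

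Whether the tissue difference at 24 DAP was the same as at other stages was tested directly, as a contrast between stages. Of 29594 genes, 6559 (22.2%) had a different endosperm to embryo ratio at 24 DAP than at 8 DAP, 3485 (11.8%) than at 16 DAP and 1298 (4.39%) than at 32 DAP (edgeR adjusted p under 0.05, contrast of 1 or more in size). With TMM factors the changes against 8 DAP were uneven in direction: 2271 ratios (7.67%) lay more towards endosperm at 24 DAP and 4288 (14.5%) more towards embryo. The splits by direction, here and against the later stages, were not rerun with other scalings. Against 16 DAP there were 1726 (5.83%) towards endosperm and 1759 (5.94%) towards embryo. Against 32 DAP there were 514 (1.74%) and 784 (2.65%). Without replicate 1 of the 24 DAP endosperm, the count against 32 DAP was 853, and within the range of library numbers of replicates 1 and 2 it was 837. DESeq2 gave 1970. Replicate 3 of the 16 DAP endosperm stood apart in that 35 genes held 50% of its counts, against 197 and 123 in the other 2 libraries of its group. Without it, an alternative chosen after seeing the data, the count against 16 DAP was 2967. The contrasts share the 24 DAP libraries, so they are not independent of each other.

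Of the 5724 genes higher in endosperm at 24 DAP, 64.2% were also called higher at 8 DAP (26.0% of all genes tested were), 77.8% at 16 DAP (23.0%) and 72.3% at 32 DAP (19.2%). Of the 6766 genes lower in endosperm, 54.1% were also called lower at 8 DAP (20.6% of all genes tested), 71.7% at 16 DAP (25.1%) and 68.1% at 32 DAP (20.4%). As a share of the other stage's calls, the shared genes made up 47.7%, 65.5% and 73.0% of those higher in endosperm at 8, 16 and 32 DAP and 60.1%, 65.3% and 76.4% of those lower. Calls in the opposite direction came mostly from 8 DAP. There, 182 genes higher in endosperm at 24 DAP had been called lower, and 467 genes lower at 24 DAP had been called higher. The opposite calls numbered 76 and 92 at 16 DAP and 13 and 55 at 32 DAP. Of the genes called at 24 DAP, 400 higher and 696 lower were called in the same direction at none of the other stages, which does not show that they differ there.

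**Figure D4:**
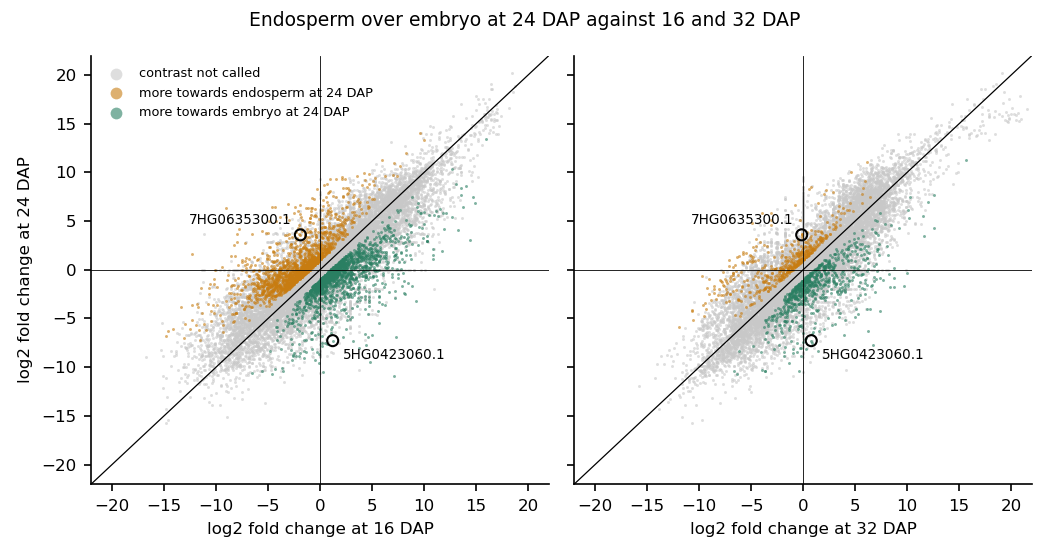
log2 fold change of endosperm over embryo at 24 DAP (vertical) against 16 DAP (left) and 32 DAP (right), 1 point per gene tested, coloured where the contrast between the stages was called and with equality as a line. Coloured points number 1726 and 1759 in the left panel and 514 and 784 in the right one. The 2 circled genes are those named for a larger difference at 24 DAP than at 16 and 32 DAP.

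Differences were next compared between stages with their sign, so that a reversed one counts as smaller. The 24 DAP difference was larger than at 16 and 32 DAP for 40 genes higher in endosperm and 53 lower (edgeR, both contrasts called). Of these, 27 and 38 also exceeded 8 DAP. The median level of the 40 genes over the stages of 16, 24 and 32 DAP was 26.0, 26.1 and 7.56 CPM in endosperm and 16.2, 2.86 and 4.99 CPM in embryo. Their embryo median was lowest at 24 DAP. The 53 genes lower in endosperm had a median of 1.43, 0.899 and 4.95 CPM in endosperm and of 1.79, 18.2 and 10.7 CPM in embryo at 16, 24 and 32 DAP. Their embryo median was highest at 24 DAP. In seed maternal tissues at 24 DAP the median was 27.85 CPM for the 40 genes and 17.85 CPM for the 53. These medians describe genes picked by the same contrasts. The counts of 40 and 53 were 25 and 28 without replicate 1 of the 24 DAP endosperm, and 25 and 33 without replicate 2 of the 24 DAP embryo. They were 26 and 27 within the range of library numbers of replicates 1 and 2, and DESeq2 gave 68 and 107.

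HORVU.MOREX.r3.7HG0635300.1 had the largest such excess in endosperm among the 23 of the 40 genes that reached 20 CPM. At 24 DAP it had 318.3, 172.7 and 75.9 CPM in endosperm libraries and 18.7, 10.9 and 17.5 CPM in embryo libraries. The groups did not overlap, although endosperm replicates differed among themselves by more than the embryo replicates did. The fitted log2 fold change came to 3.59 (SE 0.67, edgeR adjusted p = 5e-05). At 16 DAP the direction was the other way, with a mean of 32.8 ± 40.3 CPM in endosperm and 122 ± 15 CPM in embryo (SD, n = 3 each; log2 fold change -1.89, SE 0.627, edgeR adjusted p = 0.0111). The contrast of 24 against 16 DAP was 5.48 (SE 0.915, edgeR adjusted p = 8.51e-05). The 16 DAP endosperm libraries were far apart, at 78.5, 17.6 and 2.35 CPM. The lowest was replicate 3, without which the contrast was 4.93 (edgeR adjusted p = 3.84e-05). At 8 DAP endosperm again had more, with 187.2 ± 39 CPM against 8.09 ± 5.4 CPM in embryo (SD, n = 3 each). The log2 fold change there was 4.54 (SE 0.704, edgeR adjusted p = 2.91e-06). The contrast of 24 against 8 DAP was not called (-0.955, SE 0.868, edgeR adjusted p = 0.492). At 32 DAP the means were 25.4 ± 10.9 CPM in endosperm and 27.9 ± 5.05 CPM in embryo (SD, n = 3 each), and the contrast of 24 against 32 DAP was 3.72 (SE 0.887, edgeR adjusted p = 0.0099). With a replicate block within stage, which the labels do not call for, this contrast was 3.58 and not called (edgeR adjusted p = 0.0823). Seed maternal tissues had 112.9, 53.8 and 100.6 CPM at 24 DAP, a range that overlapped that of the endosperm. The gene's highest means were those of the 4 DAP stage, with 1206 ± 376 CPM in endosperm and 1470 ± 253 CPM in seed maternal tissues (SD, n = 3 each).

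HORVU.MOREX.r3.5HG0423060.1 was its counterpart, with the largest excess in embryo among 25 of the 53 genes. At 24 DAP it had 1.25, 2.28 and 0.858 CPM in endosperm libraries, from 11, 23 and 13 counts, and 137.2, 315.5 and 210.1 CPM in embryo libraries. Every embryo library lay far above every endosperm library, with a log2 fold change of -7.28 (SE 0.937, edgeR adjusted p = 4.62e-07). No read was counted in any endosperm or embryo library at 8 DAP. At 16 DAP the means were 2.73 ± 1.51 CPM in endosperm and 1.14 ± 0.825 CPM in embryo, and at 32 DAP they were 20.7 ± 1.61 CPM in endosperm and 12.02 ± 14.6 CPM in embryo (SD, n = 3 each). The contrast of 24 DAP was -8.49 against 16 DAP (SE 1.25, edgeR adjusted p = 3.07e-05) and -8.06 against 32 DAP (SE 1.14, edgeR adjusted p = 0.000145). The 32 DAP embryo libraries were far apart, at 5.74, 1.64 and 28.7 CPM. Seed maternal tissues carried the transcript at 258.2, 314.9 and 224.6 CPM at 24 DAP, within the range of the embryo, and had a mean of 327.2 ± 273 CPM at 16 DAP (SD, n = 3).

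**Figure D5:**
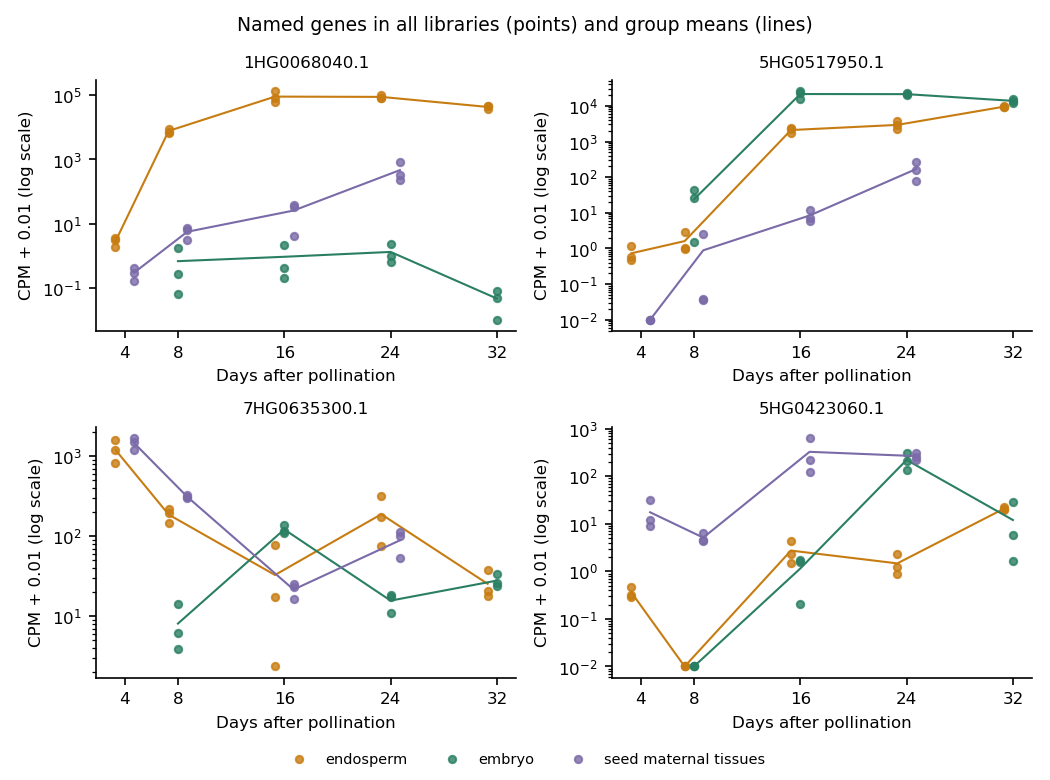
CPM + 0.01 (log scale) of the 4 named genes in every library against days after pollination, with group means as lines and the tissues set slightly apart on the horizontal axis. The genes in the upper panels differ in the same direction at 8, 16 and 24 DAP, and those in the lower panels have a tissue difference at 24 DAP (189 against 15.7 CPM on the left, 1.46 against 220.9 CPM on the right, endosperm against embryo) that exceeds those of the 16 and 32 DAP stages.

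The position of the called genes was read from the identifiers, which carry a chromosome label and a running number. The share of genes called higher in endosperm ran from 18.5% (6H) to 20.6% (7H) over the 7 chromosome labels, against 19.3% of all genes tested. The share called lower ran from 21.1% (6H) to 24.4% (4H), against 22.9%. By counts rather than genes, 1H stood apart. It held 29.5%, 29.7% and 33.4% of the counts in endosperm libraries and 14.6%, 14.6% and 14.3% in embryo libraries. The labels 2H to 7H each held a smaller share in every endosperm library than in any embryo library. Of the 82 endosperm genes of at least 1000 CPM, 25 carried the label 1H, as did 3816 of the 29594 genes tested, and these took 21.4% to 25.6% of endosperm counts. Among the 52 genes lower in endosperm at that level in embryo, 6 carried 1H and 13 carried 5H, a label that 4687 of the genes tested carried.

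Genes with neighbouring numbers tended to be called alike. After a gene higher in endosperm, the next gene tested was also higher in 32.3% of 5682 cases, against 19.5% of all genes with a chromosome label, and lower in 18.5%, against 23.1%. After a gene lower in endosperm, the next was also lower in 31.0% of 6728 cases and higher in 14.6%. Of the 82 abundant endosperm genes, 38 had another of the 82 within 20 numbers, and of the 52 abundant embryo genes 4 had another of the 52. Runs of 4 or more adjacent tested genes with the same call numbered 169 for genes higher in endosperm (865 genes) and 154 for genes lower (691 genes). With 19.5% and 23.1% of genes called, some runs of this length arise from the rates of calls alone. How many do was not worked out, nor how many close pairs sets of 82 and 52 genes would hold, so these counts are a description. The longest run held 15 genes higher in endosperm on 1H, all of low level, with a median of 1.54 CPM in endosperm and 0.0554 CPM in embryo. The longest run of genes lower in endosperm held 9 genes on 7H, with medians of 1.29 CPM in endosperm and 10.9 CPM in embryo. How reads shared by near-identical copies were counted is not given in the sources used here, so the values of neighbouring copies are uncertain. Of 239 genes with more than 1 tested transcript entry, 18 had all entries higher in endosperm, 14 had all lower and 1 had entries called in opposite directions. All others had at least 1 entry that was not called. Of all entries tested, 19.3% were called higher and 22.9% lower, a looser condition than a call of every entry of a gene.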

How the data were processed

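Whole-number read counts per transcript entry were used as deposited, 1 column per library, with replicates not pooled and no normalization by the authors. The submitters' processing notes name bcl2fastq, HISAT2 2.1.0, SAMtools and Subread 1.5.2. The genome build, the strand setting and how multi-mapping reads were handled are not given in the sources used here. Columns were matched to samples by the library number in the title. No row was a total or an unassigned class. Which of the 2 RNA extraction kits served which library is not stated.

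The table holds 83990 entries of 81687 genes. Those passing filterByExpr over the 13 groups (29594) entered the test, run in edgeR 4.0.16 under R 4.3.3. The model had 1 coefficient for each tissue and stage over the whole series, which left 26 residual degrees of freedom from 39 libraries. It used TMM factors, robust glmQLFit and glmQLFTest, with Benjamini-Hochberg adjustment over all entries tested. Standard errors were derived from the F statistic. The scripts were tested on simulated data with 50 genes, of at least 1 CPM, changed at each fold. For endosperm against embryo at 24 DAP, 34% of 2-fold and 82% of 4-fold changes were called, where 2-fold is also the minimum for a call. For the contrast of 24 against 16 DAP these shares were 6% and 60%, so many moderate changes between stages would be missed. Alternatives were other scalings and filters, DESeq2 1.42.0, fewer libraries, a replicate block and terms for library-number ranges.

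Named genes are, for each direction, the called gene with the largest difference of mean CPM, and the called gene with at least 20 CPM whose difference exceeds those at 16 and 32 DAP by the largest smaller contrast. The comparison, lists and rules were chosen with earlier results of these data known.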

Additional observations from a re-analysis of the deposited data

Results flagged for a closer look

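The test of the contrast between stages called a change in the tissue difference of 3 named genes (edgeR quasi-likelihood test, adjusted over all genes tested). For HORVU.MOREX.r3.1HG0068040.1 the contrast of 24 against 8 DAP was 2.77 (SE 1.04, adjusted p = 0.0472), with the gene higher in endosperm at both stages. The 8 DAP embryo libraries held 1, 5 and 76 counts of it, and this contrast was not rerun under the alternatives. HORVU.MOREX.r3.7HG0635300.1 had a contrast of 5.48 against 16 DAP (SE 0.915, adjusted p = 8.51e-05) and of 3.72 against 32 DAP (SE 0.887, adjusted p = 0.0099). The contrast against 32 DAP was not called with a replicate block within stage (3.58, edgeR adjusted p = 0.0823). HORVU.MOREX.r3.5HG0423060.1 had contrasts of -8.49 against 16 DAP (SE 1.25, adjusted p = 3.07e-05) and -8.06 against 32 DAP (SE 1.14, adjusted p = 0.000145). The last 2 genes were named for these contrasts.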

How the results depend on the processing

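All 4 named genes kept their direction and their call at 24 DAP under the 18 alternatives. The number of genes called stayed within 1.5 times of 12490 under all of them. It ran from 9934 (of 20345 tested) with the 6 libraries alone to 15878 (of 29594) with no fold minimum. Without single libraries it was 11632 to 12008. The number tested changed with the filter and the libraries used, so shares can move otherwise than counts. With the 6 libraries alone, 22.3% of genes with a chromosome label were higher and 26.6% lower, against 19.5% and 23.1% in the main fit. With library size alone, 11117 genes were lower in endosperm. Equal replicate numbers deviated together only weakly at 24 DAP (correlations 0.133, 0.0883 and 0.182 for replicates 1, 2 and 3), although each library correlated best with its own number, and the labels do not pair them. With a replicate block within stage, 11346 of 25235 genes tested were called. The 24 against 32 DAP contrast of HORVU.MOREX.r3.7HG0635300.1 was then 3.58 with an adjusted p of 0.0823 (edgeR).

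Genes whose tissue difference at 24 DAP differed from that at 32 DAP numbered 853 to 1125 without single libraries, 837 within the range of library numbers of replicates 1 and 2, and 1970 with DESeq2. Differences larger at 24 DAP than at 16 and 32 DAP numbered 25 to 39 (higher in endosperm) and 28 to 50 (lower) without single libraries, 26 and 27 within that range, and 68 and 107 with DESeq2. With no fold minimum 79 were higher, and with no filter on low counts 30 were lower.

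The share of next genes called alike lay 12.8 points (higher) and 7.96 points (lower) above the share of all genes. The first was 15.5 with library size alone, 14.5 with no filter, 9.92 with at least 1 CPM in at least 3 libraries, 10.4 with DESeq2, 10.0 with the 6 libraries and 10.5 with no fold minimum. The second was 6.47 with at least 1 CPM in 3 libraries, 6.18 with the 6 libraries and 6.64 with the replicate block.

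A 10-fold ratio gave an endosperm list of 180 genes (180 called higher), an embryo list of 45 (45 called lower) and a maternal list of 360 (121 called higher, 86 lower). A minimum of 100 CPM gave 60 (60 higher), 0 and 65 (44 higher, 6 lower). With 0 counts in every library of the other tissue in place of 3, 80 genes reached 20 CPM in endosperm and 22 did in embryo. Of these, 5 and 1 had at most 3 counts in every seed maternal library at 24 DAP, where 3 counts are worth less on the CPM scale. With a margin of 0.5, maternal levels of genes higher in endosperm were near both tissues for 145, between for 1148 and below both for 356. For genes lower in endosperm these counts were 152, 1222 and 767. The cause of these changes was not tested. Depth limits the low end: 3 counts are worth up to 0.341 CPM in endosperm, and genes below that level could not be told from absent.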
